A study of Rattus norvegicus with 4 samples.

Results

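Magnocellular and lateral hypothalamic neuropeptides are the 7 genes Avp, Oxt, Crh, Hcrt, Pmch, Qrfp and Ucn3. They were chosen by name, and every array probe whose accession belonged to one of them was taken. This gave 7 probes for 6 of the 7 genes, among 41012 probes for 13440 named genes on the arrays. No probe was matched to Ucn3, which is not analysed here. Avp had 2 probes and each other gene had 1, and all 7 probes passed the filter on dim spots.

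Tissue blocks of the hypothalamus, cut between bregma -2.12 and -4.52 mm, came from 8 rats (male, Sprague Dawley). All rats, controls included, drank water with 0.025% methimazole, which blocks thyroid hormone synthesis, for 22 days, so both groups shared this block when injected. On day 21, 4 rats received an injection of T3 (triiodothyronine, 25 µg per 100 g), the form of thyroid hormone that binds its receptors, and 4 received saline. Tissue was taken 24 hours later, at an age of 10 weeks, methimazole having begun at 7 weeks. Each of 4 two-colour Agilent arrays held 1 T3 rat and 1 saline rat, and all 4 lay on 1 slide. The T3 rat carried the red dye Cy5 on arrays 1 and 3 and the green dye Cy3 on the other pair, arrays 2 and 4.

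Vasopressin (Avp) and oxytocin (Oxt) are made by large magnocellular neurons of the supraoptic and paraventricular nuclei, which send axons to the posterior pituitary, and vasopressin also by the suprachiasmatic clock. Corticotropin-releasing hormone (Crh) of the paraventricular nucleus starts the stress axis. Orexin (Hcrt) and melanin-concentrating hormone (Pmch) are made by separate neurons of the lateral hypothalamus that act on wakefulness and feeding, and Qrfp encodes a feeding peptide of nearby neurons. The supraoptic and paraventricular nuclei lie towards the front of the hypothalamus, and a block that starts at bregma -2.12 mm meets chiefly their caudal end, whereas the orexin and melanin-concentrating hormone neurons lie within its span.

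Avp and Oxt are neighbours on chromosome 3, with 0 annotated genes between them, and are transcribed towards each other. Their promoters are shown because these neighbours had the most similar pattern over the arrays. RefSeq's promoter table (build GRCr8, 250 bases before to 50 after each gene's start) matched 5 of the 7 members. Capitals mark matches on either strand to AGGTCA, the core that thyroid hormone receptors and related nuclear receptors bind, and to TGACG, the core of the cAMP response element. The Avp window is chr3:138248473-138248772 on the minus strand and the Oxt window chr3:138235504-138235803 on the plus strand.
Avp promoter: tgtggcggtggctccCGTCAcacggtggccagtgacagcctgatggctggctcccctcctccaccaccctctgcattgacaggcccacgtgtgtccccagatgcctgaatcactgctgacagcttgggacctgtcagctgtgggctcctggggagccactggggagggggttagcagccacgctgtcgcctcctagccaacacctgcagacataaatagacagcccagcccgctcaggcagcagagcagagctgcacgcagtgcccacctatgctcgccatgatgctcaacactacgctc
Oxt promoter: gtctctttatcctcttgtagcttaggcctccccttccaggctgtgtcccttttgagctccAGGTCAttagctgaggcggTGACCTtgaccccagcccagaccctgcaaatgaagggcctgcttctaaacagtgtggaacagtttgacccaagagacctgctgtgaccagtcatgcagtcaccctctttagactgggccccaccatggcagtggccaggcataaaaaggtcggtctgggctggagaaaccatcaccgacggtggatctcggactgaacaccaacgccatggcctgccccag
The Oxt window held 2 matches to AGGTCA, starting 190 bases before the gene's start on the plus strand and 171 bases before it on the minus strand, and 0 to TGACG. The Avp window held 1 match to TGACG, 235 bases before the start on the strand opposite to the gene, and 0 to AGGTCA. Of 33469 promoters of this length, 16.2% held AGGTCA and 21.2% held TGACG. The motifs do not overlap each other in these windows, and a match describes the letters alone.

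Values are log2 of T3 over saline on each array, from median spot brightness after background correction and within-array loess normalisation. Differences were tested with limma over all 23141 probes that were well above background, with p-values adjusted by the Benjamini-Hochberg method and a threshold of 0.05. Of the 6 measured neuropeptide genes, 0 passed, against 23 of all 23141 probes (0.0994%), of which 22 were higher (0.0951%) and 1 lower (0.00432%) after T3. Their limma adjusted p lay between 0.58 and 0.98, and 0.039, for Hcrt, was the lowest unadjusted p. The mean ratio was below 0 for 5 of the 6 genes and above 0 for Crh, with a median of -0.20 against -0.0026 for all tested probes. What set the members apart from each other was the spread between arrays.

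**Figure D1:**
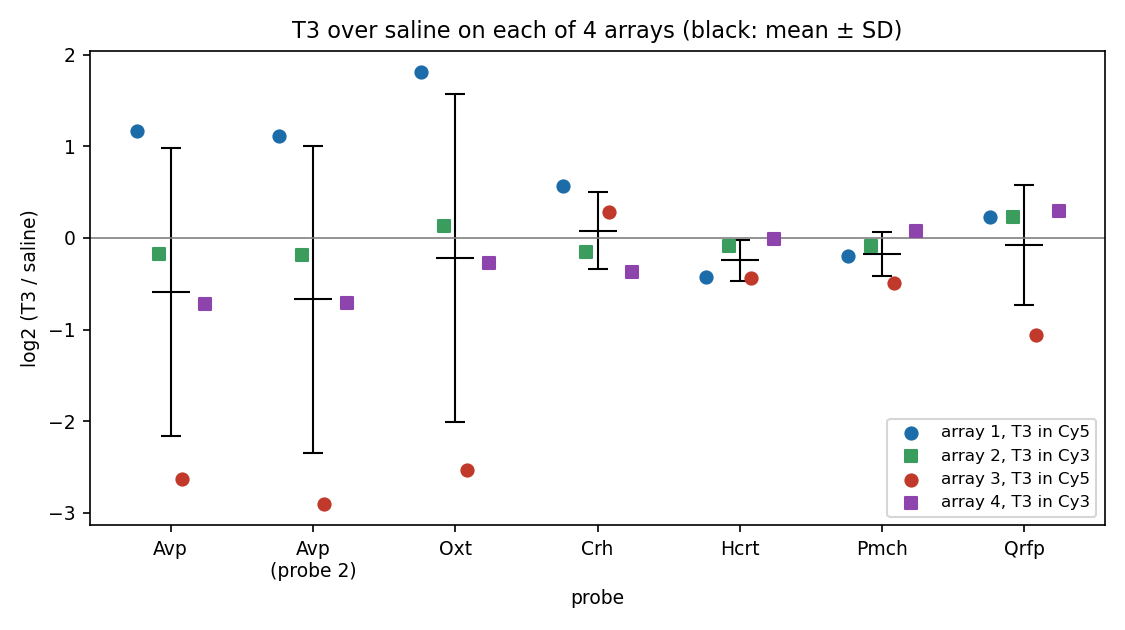
Log2 ratio of T3 over saline for each probe of the 6 genes on 4 arrays. Colours mark the array, circles T3 in Cy5 and squares T3 in Cy3, and black bars give the mean ± SD. Avp and Oxt run from above 1 on array 1 to below -2.5 on array 3, while Hcrt spans 0.43 and Pmch 0.57.

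Avp, the vasopressin precursor, was higher in the T3 rat on 1 array and lower on 3. Its log2 ratio was 1.17 on array 1, -0.18 on array 2, -2.63 on array 3 and -0.72 on array 4. This is 2.25-fold higher in the T3 rat of array 1 and 6.18-fold lower in the T3 rat of array 3. The mean was -0.59 ± 1.57 (SD, n = 4 arrays), with a 95% confidence interval of -1.78 to 0.60 and a limma adjusted p of 0.87. A second Avp probe gave 1.11, -0.18, -2.90 and -0.72 on arrays 1 to 4, the same order of arrays as the first (mean -0.67 ± 1.67, limma adjusted p = 0.85).

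Oxt, the oxytocin precursor, moved between arrays as Avp did. Its log2 ratio was 1.81 on array 1, 0.13 on array 2, -2.53 on array 3 and -0.27 on array 4. The T3 rat was thus 3.50-fold higher on array 1 and 5.78-fold lower on array 3. The mean was -0.22 ± 1.79 (SD, n = 4 arrays), with an interval of -1.56 to 1.13 and a limma adjusted p of 0.98. Array 3 set the direction of both genes, since without it the Avp mean was 0.088 and the Oxt mean 0.55. The Avp ratio lay below the Oxt ratio on 4 of 4 arrays, by 0.64, 0.31, 0.097 and 0.45 (mean difference -0.37 ± 0.23, Avp minus Oxt, not tested).

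The brighter Avp probe and the Oxt probe were each printed in 10 spots per array. The SD of the log2 ratio over the spots of 1 array was 0.040 to 0.082 for Avp and 0.042 to 0.058 for Oxt, so the SD between arrays was 19.2 and 30.6 times the highest spot SD. Spots of an array share its rats and its hybridisation, so this SD covers neither. On array 3 the Avp spots ran from -2.74 to -2.53 and the Oxt spots from -2.60 to -2.42. No spot of either gene was saturated. Among all 23141 tested probes, whose median SD over arrays was 0.16, Oxt ranked 15th and the Avp probes 17th and 20th, and 86 probes had an SD above 1.

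**Figure D2:**
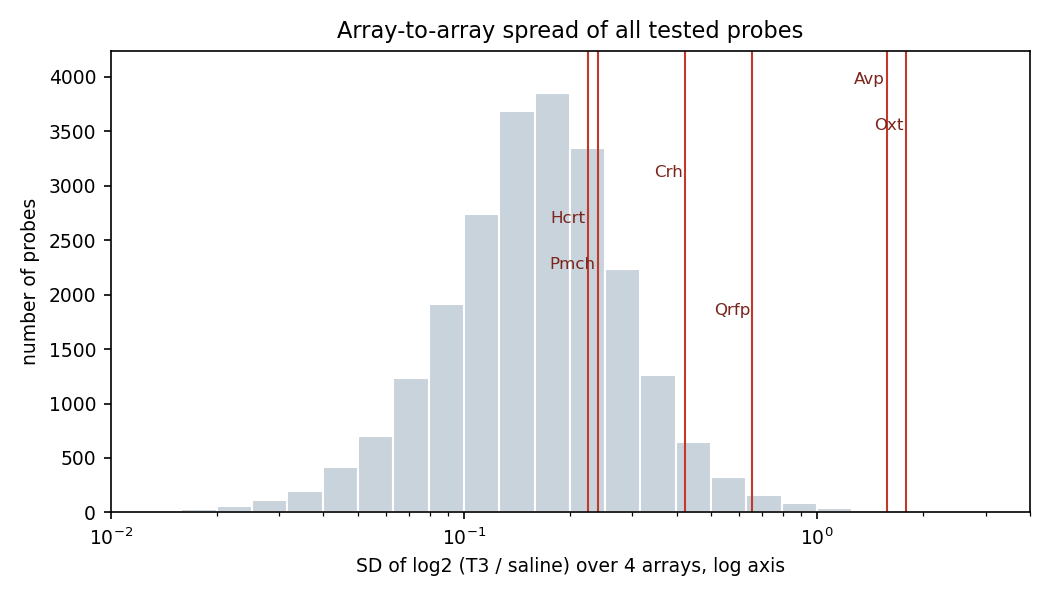
Histogram of the SD over 4 arrays of the log2 ratio for all 23141 tested probes, on a log axis, with the brightest probe of each of the 6 genes as a red line. Avp at 1.57 and Oxt at 1.79 lie in the far right tail, and Hcrt at 0.22 and Pmch at 0.24 lie within the upper part of the bulk.

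The brightness of each dye was also turned into a level for each rat (log2 units after scaling between arrays, comparable between rats for 1 probe and not between probes). The Avp level was 15.47, 15.84, 12.98 and 12.99 in the T3 rats of arrays 1 to 4 and 14.30, 16.02, 15.61 and 13.72 in the saline rats. Both groups held high and low rats and overlapped. Over the 8 rats the level spanned 3.04 log2 units, an 8.24-fold range, against a median range of 0.58 for all tested probes. On array 2 both rats were high, on array 4 both were low, and on array 3 the saline rat was high and the T3 rat low.

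The Oxt level was 12.99, 13.41, 9.64 and 11.13 in the T3 rats and 11.18, 13.28, 12.17 and 11.40 in the saline rats. The T3 rat of array 3 had the lowest level of Oxt and, almost level with the T3 rat of array 4, of Avp, and the rats of array 2 held the highest levels of Oxt and of Avp. The groups overlapped, and the range over 8 rats was 3.77 log2 units (13.6-fold). The 2 rats of an array share a hybridisation, so that levels set side by side across arrays also carry differences between arrays. In tissue blocks, fewer cells of a type and less RNA per cell cannot be told apart.

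**Figure D3:**
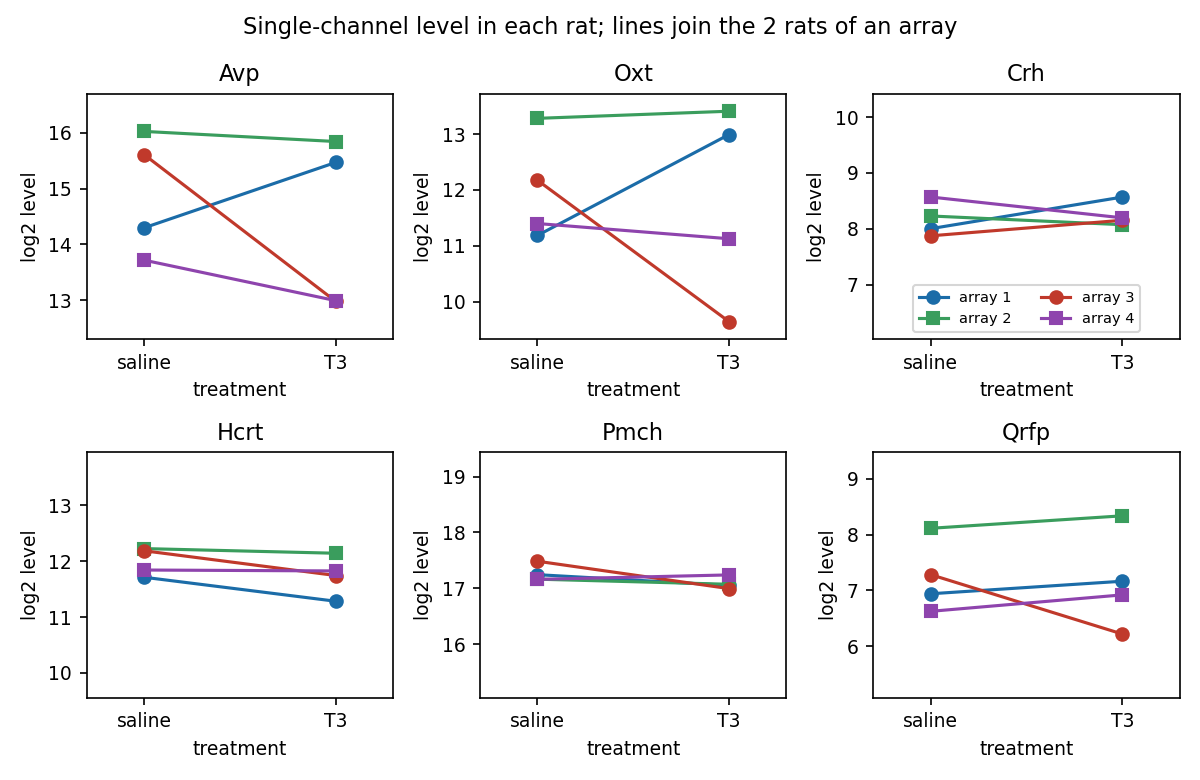
Single-channel log2 level of the 6 genes in each of 8 rats, with a line joining the saline rat and the T3 rat of an array; every panel spans 4.4 log2 units. Avp spans 3.04 and Oxt 3.77 log2 units, with lines that cross, while the 8 Pmch values span 0.49.

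Crh had a small ratio whose sign went with the dye. It was 0.57 and 0.28 on arrays 1 and 3, with T3 in Cy5, and -0.16 and -0.37 on arrays 2 and 4, with T3 in Cy3. The mean was 0.079 ± 0.42 (SD, n = 4 arrays), with an interval of -0.27 to 0.43 and a limma adjusted p of 0.96. In a limma fit with a dye term the T3 difference was again 0.079 (adjusted p = 0.74) and the dye coefficient, positive for Cy5, was 0.34 (unadjusted p = 0.0045, adjusted p = 0.19). The level was 8.57, 8.07, 8.15 and 8.20 in the T3 rats and 8.00, 8.23, 7.87 and 8.57 in the saline rats. The rats of both treatments overlapped within 0.69 log2 units. The T3 rats of arrays 3 and 4, lowest in Avp and in Oxt, were at 8.15 and 8.20 in Crh, inside the range of the other rats. The saline rat of array 1, at 11.18 in Oxt, was among the lower rats in Crh, at 8.00. The sign of the Crh ratio went with the dye, whose coefficient did not pass the threshold after adjustment. The part of the dye in the Crh levels was not tested.

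Hcrt, the orexin precursor, was the member with a lower value in the T3 rat on 4 of 4 arrays. Its log2 ratio was -0.43 and -0.44 on arrays 1 and 3 and -0.083 and -0.016 on arrays 2 and 4, so the lower values were those with T3 in Cy5. The mean was -0.24 ± 0.22 (SD, n = 4 arrays), with an interval of -0.47 to -0.016 before any adjustment and a limma adjusted p of 0.58. With a dye term the limma p for T3 was 0.0053 unadjusted and 0.18 adjusted, and the dye coefficient was -0.19 (adjusted p = 0.22). Its level was 11.28, 12.14, 11.74 and 11.82 in the T3 rats and 11.71, 12.22, 12.19 and 11.84 in the saline rats, which overlapped. Hcrt was printed in 10 spots per array with a spot SD of 0.030 to 0.059, and on array 4 its spots ran from -0.10 to 0.077, on both sides of 0.

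Pmch, the melanin-concentrating hormone precursor, had the smallest range over the rats of the 6 genes. Its log2 ratio was -0.19, -0.092, -0.49 and 0.080 on arrays 1 to 4 (mean -0.17 ± 0.24, SD, n = 4 arrays), with an interval of -0.41 to 0.061 and a limma adjusted p of 0.75. The level was 17.05, 17.07, 17.00 and 17.24 in the T3 rats and 17.25, 17.16, 17.49 and 17.16 in the saline rats. Its range of 0.49 was below the 0.58 median of all tested probes, and no spot was saturated. The scaling gives every array the same distribution of mean brightness. It can leave a probe as bright as Pmch little room to differ between arrays, and its part in the small range was not tested. The highest and the lowest Pmch level, 17.49 and 17.00, were both on array 3, so the range equals the size of that array's ratio. The T3 rat of array 3, lowest in Avp and Oxt, also had the lowest Pmch level, 17.00 against 17.05 in the next rat.

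Qrfp was dim, and it passed the filter through the saline channel, with 3 of 4 saline rats and 2 of 4 T3 rats well above background. Its log2 ratio was 0.22, 0.22, -1.06 and 0.29 on arrays 1 to 4 (mean -0.080 ± 0.66, SD, n = 4 arrays), with an interval of -0.59 to 0.43 and a limma adjusted p of 0.98. The level was 7.17, 8.34, 6.22 and 6.92 in the T3 rats and 6.94, 8.11, 7.28 and 6.63 in the saline rats. As with Oxt, the T3 rat of array 3 was lowest and both rats of array 2 were highest. This value on array 3 rests on a single spot near background, with raw brightness of 141 in T3 and 133 in saline (background 103 and 50). The single spot on array 4 was also near background, with 92.5 in T3 and 157 in saline (background 46.5 and 103).

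Avp and Oxt, of the magnocellular neurons, were at percentile 99.9 of all tested probes for their SD over arrays, Crh at 95.2, Pmch at 76.3 and Hcrt at 72.5. Qrfp was at 98.7 through its dim spot on array 3, its other 3 ratios lying between 0.22 and 0.29. A larger spread makes a mean difference of a given size less certain, and the intervals for Avp and Oxt leave room for a change of more than 1 log2 unit in at least 1 direction. Those for Crh, Hcrt and Pmch are narrower, and none of their bounds lies beyond -0.47 or 0.43.

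Of 9049 other genes measured on all arrays, Oxt was the nearest to Avp and Avp the nearest to Oxt by Euclidean distance over the 4 log2 ratios (0.84). Outside the members, Tff3, a trefoil peptide (1.49), Gda, a guanine deaminase (1.51), Galnt16 (1.64), Ephx2, an epoxide hydrolase (1.67), and Pde6h (1.84) came closest to Avp. Rexo4 (1.75), Tff3 (1.85), Gda (1.86), Ephx2 (1.89) and Jund (1.94) came closest to Oxt. All of these had a negative ratio on array 3, from -1.96 to -0.95. Of the other members, Pmch, Hcrt and Crh were 284th or farther from either. The place of Qrfp, 10th from Avp and 16th from Oxt, rests on single dim spots, that of array 3 included.

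Receptors of the peptides had SDs over arrays of 0.11 to 0.27, all below that of Crh. Of 11 listed genes 8 were measured, and 0 passed the threshold, with 5 higher and 3 lower means (median 0.020, against 0.0043 over 9291 named genes, of which 15 passed). Crhbp, the protein that binds and sequesters corticotropin-releasing hormone, was at 0.41, -0.13, 0.41 and 0.06 on arrays 1 to 4 (mean 0.19 ± 0.27, limma adjusted p = 0.75). The orexin receptors Hcrtr1 and Hcrtr2 had means of 0.0015 ± 0.20 and -0.13 ± 0.18, and the corticotropin-releasing hormone receptors Crhr1 and Crhr2 of 0.10 ± 0.22 and -0.052 ± 0.11. The vasopressin receptor Avpr1a was at 0.039 ± 0.13, the melanin-concentrating hormone receptor Mchr1 at -0.0047 ± 0.16 and the Qrfp receptor Qrfpr at 0.10 ± 0.14. Avpr1b, Avpr2 and Oxtr were not among the tested genes.

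Of 11 prohormone processing and secretory granule genes 4 had a higher and 7 a lower mean, with 0 past the threshold (median -0.032 overall and -0.036 on array 3). Chgb, a granule protein, was at 0.65, 0.012, 0.28 and -0.12 on arrays 1 to 4, and Pcsk1, a prohormone convertase, at -0.076, 0.17, -0.28 and -0.32. Of 8 regulators of magnocellular and paraventricular neurons 5 were measured, with 2 higher, 3 lower and 0 past the threshold. The median of these regulators on array 3 was 0.0078. Sim1, a transcription factor needed to form the paraventricular nucleus, was named here after its value was seen. It was at -0.061, 0.15, -0.19 and 0.049 on arrays 1 to 4, the lowest of these regulators on array 3. On that array Crem was at -0.12, Arnt2 at 0.0078 and Pou3f2 at 0.050. Creb3l1, which activates vasopressin transcription, was at 0.35, -0.42 and 0.30 on arrays 1 to 3 and had its spot left out on array 4.

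Other neuropeptides of the blocks gave a mixed picture, with 7 of 8 measured, 4 higher, 3 lower and 0 past the threshold. Pdyn, the dynorphin precursor that vasopressin neurons also make, was at 0.072, 0.063, -0.92 and 0.11 on arrays 1 to 4. It was thus low on array 3 with Avp and Oxt, and not high on array 1. Gal, galanin, was at 0.25, 0.25, -0.45 and 0.48. Ucn, urocortin, a relative of Crh known chiefly from the Edinger-Westphal nucleus of the midbrain, was at -0.013, 0.27, 1.83 and -0.98, the opposite sign from Avp on array 3. Cartpt, a peptide shared by melanin-concentrating hormone neurons, was at -0.064, -0.097, -0.36 and -0.38 (mean -0.23 ± 0.17, limma adjusted p = 0.54).

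**Figure D4:**
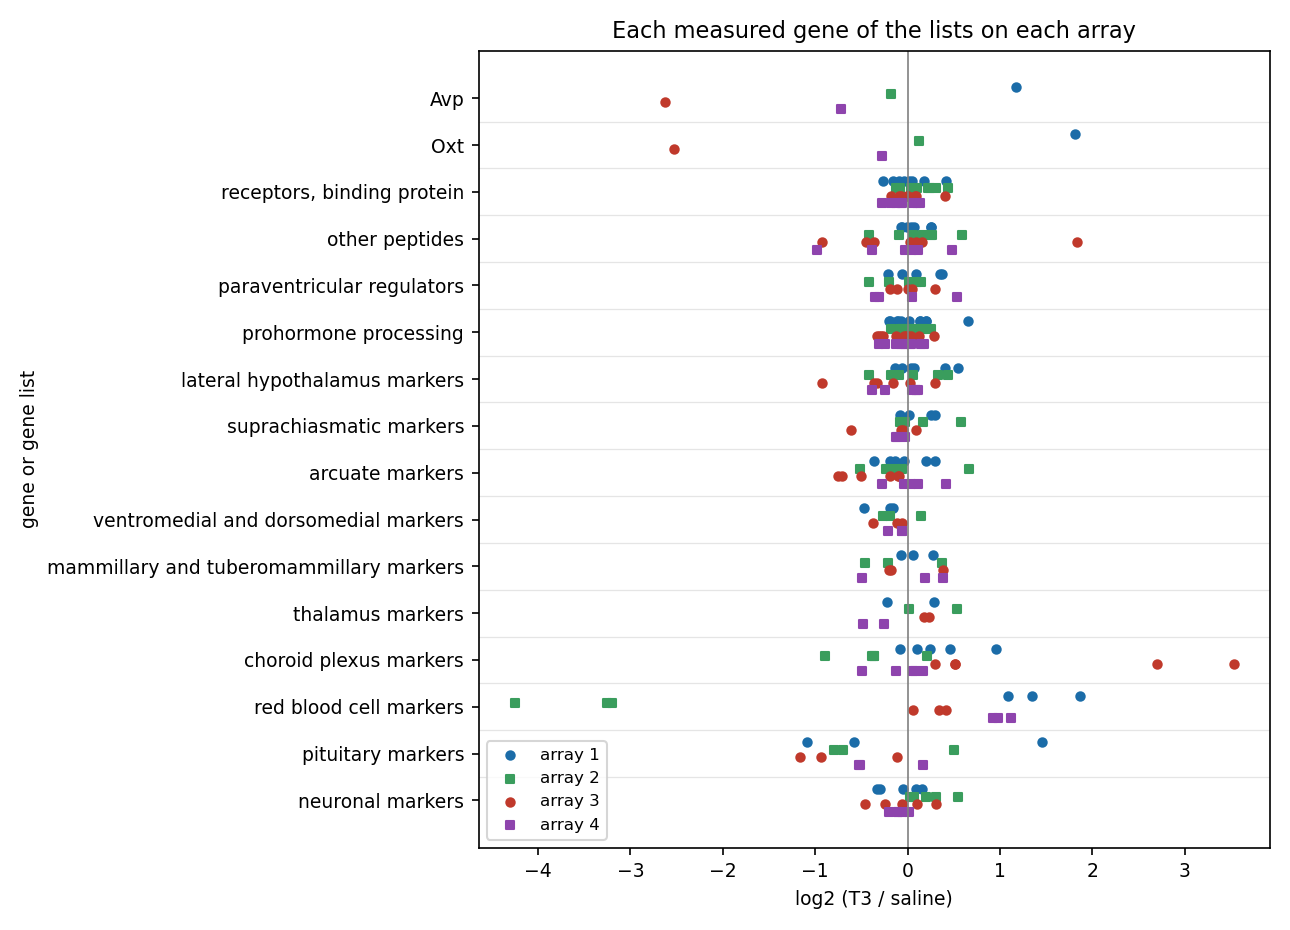
Log2 ratio of T3 over saline of every measured gene in each list, with Avp and Oxt at the top; each point is 1 gene on 1 array, coloured by array. On array 3 (red) Avp and Oxt lie below -2.5 and the choroid plexus genes Ttr and Sostdc1 at 3.53 and 2.70, while on array 2 (green) red blood cell genes lie below -3.

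Markers of regions and cell types were set beside these values, and which nuclei each block held was not measured directly. Pomc and Agrp of the arcuate nucleus and Npvf of the dorsomedial nucleus were well above background on 4 of 4 arrays in both treatments, as was the thalamus marker Prkcd. On array 3 the 5 measured of 8 choroid plexus markers had a median ratio of 0.52, with Ttr, transthyretin, at 3.53 and Sostdc1 at 2.70. Their mean level was 10.04 in the T3 rat of that array, against 8.08 to 8.26 in the other T3 rats and 7.92 to 8.59 in the saline rats. Ttr (13.57 in that rat) and Sostdc1 (11.07) carried this mean, and Aqp1 was highest in the saline rat of array 2 and Otx2 in the T3 rat of array 4. Sostdc1 and Otx2 were well above background in all 8 rats, Ttr and Folr1 on 3 of 4 arrays in T3 and 4 of 4 in saline, and Aqp1 on 3 and 2. In the authors' deposited table Ttr was at 3.48 and Sostdc1 at 1.11 on array 3, where Avp was at 0.53, and Ttr at 0.095 on array 4, where Avp was lowest.

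Levels of region markers also differed between arrays. Prkcd and Lef1, the 2 measured of 6 thalamus markers, had mean levels of 9.38 and 9.11 in the T3 and the saline rat of array 2, against 10.53 to 11.83 in the other rats. Array 2 was the array on which both rats had high Avp and Oxt. The 5 arcuate markers with a value on all arrays averaged 12.22 and 12.45 in the rats of array 2, against 11.26 to 11.66 in the others, and the 3 ventromedial and dorsomedial markers 9.85 and 9.96 against 8.53 to 9.52. On array 4, where both rats were low in Avp, the thalamus markers were at 11.46 and 11.83, the highest of the 8 rats. Arrays 1 and 3 did not follow this order. The thalamus markers of array 1 were at 11.28 (T3) and 11.25 (saline), beside Avp levels of 15.47 and 14.30. Those of array 3 were nearly equal, at 10.73 (T3) and 10.53 (saline), while Avp was at 12.98 and 15.61. The ventromedial and dorsomedial mean was lowest on array 4, at 8.53 and 8.65, through Ppp1r17 alone, since Adcyap1 and Npvf were not lowest on that array. Ppp1r17 was at 6.57 in the saline rat of array 4 against 9.19 to 9.79 in the other saline rats, and at 6.36 in its T3 rat against up to 9.60. It was well above background on 3 of 4 arrays in each treatment. On array 4, 1 Hcrt spot and 2 Oxt spots were also dim in both dyes and were left out as outliers. The granule gene Scg2 was at 8.79 and 8.82 there, against 13.01 to 13.51 in the other rats. Whether the low Ppp1r17 value came from the spot or the tissue was not tested. Neuronal markers ran from 12.34 to 12.80 over all rats. The part of block content in the spread of Avp and Oxt was not tested.

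Medians of the other region lists were small beside the ratios of Avp and Oxt on array 3, and 0 genes of these lists passed the threshold. Single markers of the lists below ran on that array from -0.92 (Pdyn) to 0.38 (Slc18a2). The medians there were -0.35 for 6 arcuate markers, -0.25 for 6 lateral hypothalamus markers, -0.061 for 4 suprachiasmatic, -0.11 for 3 ventromedial and dorsomedial and -0.18 for 3 mammillary and tuberomammillary markers. Among them, Pomc, the precursor of the melanocortins, was at -0.37, -0.21, -0.75 and 0.42 on arrays 1 to 4. Six6, a transcription factor of the suprachiasmatic region, was at 0.30, -0.080, -0.61 and -0.11, the same order of arrays as Avp. Lhx1 had this order within a narrow range, at 0.018, -0.024, -0.054 and -0.028. Vipr2 had another order, at -0.088, 0.58, -0.068 and -0.13. Vip was above 0 on array 3, at 0.25, 0.16 and 0.088 on arrays 1 to 3, and had no value on array 4. Slc18a2, the vesicular monoamine transporter, was at 0.28, 0.37, 0.38 and 0.38 (mean 0.35 ± 0.05, limma adjusted p = 0.15), and Hdc, which makes histamine, at -0.069, -0.47, -0.20 and -0.49 (adjusted p = 0.40).

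The authors' deposited table gave another order of arrays for the same genes. In it Avp was at 0.49, -0.50, 0.53 and -2.06 on arrays 1 to 4 and Oxt at 0.077, -0.079, 0.15 and -1.35. Array 4 was thus lowest for both, and array 3 was above 0. In the authors' deposited table Pmch was at 0.86, -0.33, 0.72 and -1.26 and Hcrt at 0.28, -0.018, 0.89 and -0.46, again lowest on array 4. Over the tested probes, its columns correlated with the scanner ratios of the same array at Pearson r of 0.43, 0.43, 0.19 and 0.28 (across probes, which are not independent). Its columns correlated at 0.31 between arrays 1 and 3 (T3 in Cy5) and at 0.31 between arrays 2 and 4 (T3 in Cy3). Between arrays 3 and 4, of opposite dye, the correlation was -0.51. Avp, Oxt, Crh, Hcrt and Pmch were all above 0 there on arrays 1 and 3 and below 0 on arrays 2 and 4. The signs of these genes in the authors' table thus went with the dye, and the cause was not tested. Qrfp, at -0.35, -0.56, 0.060 and -0.63 on arrays 1 to 4, was the exception, being below 0 on array 1. The sources used here do not state the log base or centring of the authors' table. Its direction was taken from 10 spike-in probes, whose values followed the scanner ratios turned to T3 over saline (r of 0.991 to 0.996 over the arrays). Both sources have the lowest Avp ratio and the lowest Oxt ratio together on 1 array, array 3 in the scanner ratios and array 4 in the authors' table. Which array that was cannot be settled from the files. Ttr and Sostdc1, in contrast, were highest on array 3 in both sources.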

How the data were processed

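The members and gene lists were chosen with earlier results of these data known. Per the file headers, version 10.7.3.1 of Agilent's Feature Extraction made the deposited scanner files, which give median intensity of spot and background (not normalized), processed intensity, and log10 ratios (red over green). A value table was also deposited, read here as log2; the submitters' processing notes name limma 3.18.9. Here median intensities were corrected with normexp (offset 50) and loess in limma 3.58.1 (R 4.3.3), with control spots at weight 0. Outlier spots (0.946%) were left out, spots of a probe averaged and ratios turned to T3 over saline. Probes well above background on at least 3 arrays in either treatment were kept (23141 of 41012). Single-channel levels used Aquantile scaling. Where a gene had several kept probes, the brightest stood for it.

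Accessions without version gave 16964 probes 1 symbol from a RefSeq table (GRCr8, names alone) and 24048 none. The fit used lmFit and eBayes, 2-sided, with 3 residual and 4.35 prior degrees of freedom, and was tested on simulated data. Each array was taken as 1 pair of rats, so the pairing lies in the ratio. The labels give 8 rats and 4 replicates per treatment; the number of arrays limits the precision. Each array's median spot brightness lay between 110 and 138.5 (Cy3) or 238 and 281 (Cy5).

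The text names all members, all measured receptors and all measured suprachiasmatic, regulator and choroid plexus genes. Of each other list it names up to 3 genes with the highest spread and 2 with the smallest p. The 5 genes nearest to Avp and Oxt are also named. Alternatives were other background, normalization, filter, spot and dye settings, the authors' table, unpaired levels and each array left out. Probe sequences, coordinates of probes and protein sequences were not used here.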

Additional observations from a re-analysis of the deposited data

Results flagged for a closer look

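In 4 of 43 sets of values tested, 1 array stood apart from the rest by Dixon's gap over range, where chance gives about 1 in 20, or 2.1. The Qrfp ratio of array 3, -1.06 from a single dim spot, lay below the 0.22 to 0.29 of its other arrays (0.948). The Mchr1 ratio of array 2, 0.24, lay above values between -0.095 and -0.070 (0.926). The median of the other peptides was 0.16 on array 2 against 0.0065 to 0.031 (0.842), and that of the neuronal markers 0.20 on array 2 against -0.11 to -0.055 (0.831). For Avp and Oxt no single array stood apart in this way, and their values were spread over the whole range.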

How the results depend on the processing

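No alternative brought a member past the threshold: in 84 repeats over the 6 genes the lowest limma adjusted p was 0.18, for Hcrt with a dye term, and 78 kept the direction. The other 6 reversed. Leaving out each array in turn gave means of -1.18 to 0.088 for Avp, -0.89 to 0.55 for Oxt, -0.083 to 0.23 for Crh, -0.21 to 0.25 for Qrfp, -0.32 to -0.18 for Hcrt and -0.26 to -0.068 for Pmch (-0.068 without array 3), with the sign turning without array 3 (Avp, Oxt and Qrfp) or array 1 (Crh). With the authors' table Crh was at -0.14, Hcrt at 0.17, Pmch at -0.00065 and Qrfp at -0.37. The cause was not tested. The pairing of rats on an array was dropped in a fit without the replicate block, on 8 single-channel levels, which gave the same means and 0 calls over all probes (523 at an unadjusted p under 0.05).

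Over all probes, limma called 23. It called 0 with Agilent's processed signals and with median centring (1947 and 131 at an unadjusted p under 0.05), 10 with the authors' table, 67 without the filter on dim probes, 36 with the filter on all 4 arrays and 15 with a dye term. Leaving out an array gave 0 to 70 calls, with 0 without array 1, 3 or 4 (1401, 1381 and 1578 at an unadjusted p under 0.05) and 70 without array 2. The spot settings, added after seeing the data, changed no call of a member. Of 196 repeats of list medians, 14 moved by more than the SD over arrays. Signal over background limits Qrfp the most.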

Other observations

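Red blood cell and pituitary markers, not taken up above, also varied between rats or between arrays. Hbb-b1, Hbb and Alas2, the 3 measured of 6 red blood cell markers, were at -4.25, -3.25 and -3.20 on array 2 and between 0.062 and 1.87 on the other arrays. Their mean level was 13.25 in the saline rat of array 2, against 10.06 to 10.66 in the other saline rats and 9.68 to 11.67 in the T3 rats. The saline rat of array 2 also had the highest Avp level, 16.02, while its T3 partner, with 9.68 for the red blood cell markers, had 15.84. The 3 measured of 6 pituitary markers had mean levels of 7.07 and 7.36 in the rats of array 4 and 7.83 to 9.35 in the others. Cga carried this difference (6.33 and 6.86 on array 4, against 8.69 to 10.48). Tshb was lowest in the T3 rat of array 3 (6.26), and Lhb on array 4 (8.34 and 8.87) lay within the range of the other rats. Both rats of array 4 were low in Cga, as in Ppp1r17 and Scg2, on an array with some spots dim in both dyes. Tshb, a subunit of thyrotropin, was at -1.09, -0.80, -0.94 and 0.17 on arrays 1 to 4 (limma adjusted p = 0.36). The parts of pituitary tissue and of dim spots in the values of these markers were not tested.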
